A study of Mus musculus with 7 samples.

Results

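The transcripts followed here encode the 10 chains from which the receptors for interleukin-4 (IL-4), IL-13, IL-33, thymic stromal lymphopoietin (TSLP) and IL-25 are built. The chains are Il4ra, Il13ra1, Il13ra2, Il2rg, Il1rl1, Il1rap, Crlf2, Il7r, Il17rb and Il17ra. They are 10 of the 18220 genes tested, each with 1 probe set, and were chosen by gene symbol. The annotation table lists 9 of them under these symbols, and the probe set of Crlf2 carries the older name Tpte2 there and was identified by its transcript accession, NM_016715. The eosinophils were sorted out of lung tissue of BALB/c mice, a common inbred strain, after challenge with OVA (ovalbumin, an egg white protein used as allergen; n = 3 samples) or with saline (n = 4 samples), and RNA of each sample was hybridised to 1 Affymetrix mouse gene 1.0 ST array. Age, sex, challenge schedule and whether a sample is 1 mouse or a pool are not given in the sources used here, so the p-values reflect the variation among these 7 samples, which may be technical.

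IL-4 binds the IL-4 receptor alpha chain (Il4ra), which then pairs either with the common gamma chain (Il2rg) in the type I receptor or with Il13ra1 in the type II receptor, and the type II receptor also takes IL-13. Il13ra2 binds IL-13 tightly and is regarded mainly as a decoy. IL-33, TSLP and IL-25 are alarm signals released largely by epithelium: IL-33 is bound by ST2 (Il1rl1) with Il1rap, TSLP by Crlf2 with Il7r, and IL-25 by Il17rb with Il17ra. In allergic lungs these cytokines are known to act on eosinophils, macrophages and lymphoid cells, with IL-4 and IL-13 signalling through STAT6 and IL-33 through MyD88.

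In OVA eosinophils the 3 chains Il4ra, Il13ra1 and Il1rl1 were higher and Il2rg was lower than in saline eosinophils. Il13ra2, Il1rap and the chains for TSLP and IL-25 did not pass the test. Levels are log2 values after robust multi-array averaging (RMA), and a difference is OVA minus saline on that log2 scale with its standard error (SE). A gene was called where limma's p-value, after Benjamini-Hochberg adjustment across the 18220 genes, was under 0.05. By this rule 3 of the 10 chains were higher and 1 was lower, where 5.28% of all genes were higher and 1.17% lower. The median difference of the 10 chains was 0.23 and that of all genes was -0.07. Over all genes 962 were higher and 213 lower, a split of 81.9% higher that became 64.4% (927 and 513) when the values were quantile normalized again and 70.0% (1109 and 476) after cyclic loess. All OVA samples lay above all saline samples for 4 chains and below them for 1, against 11.0% and 8.63% of all genes.

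**Figure D1:**
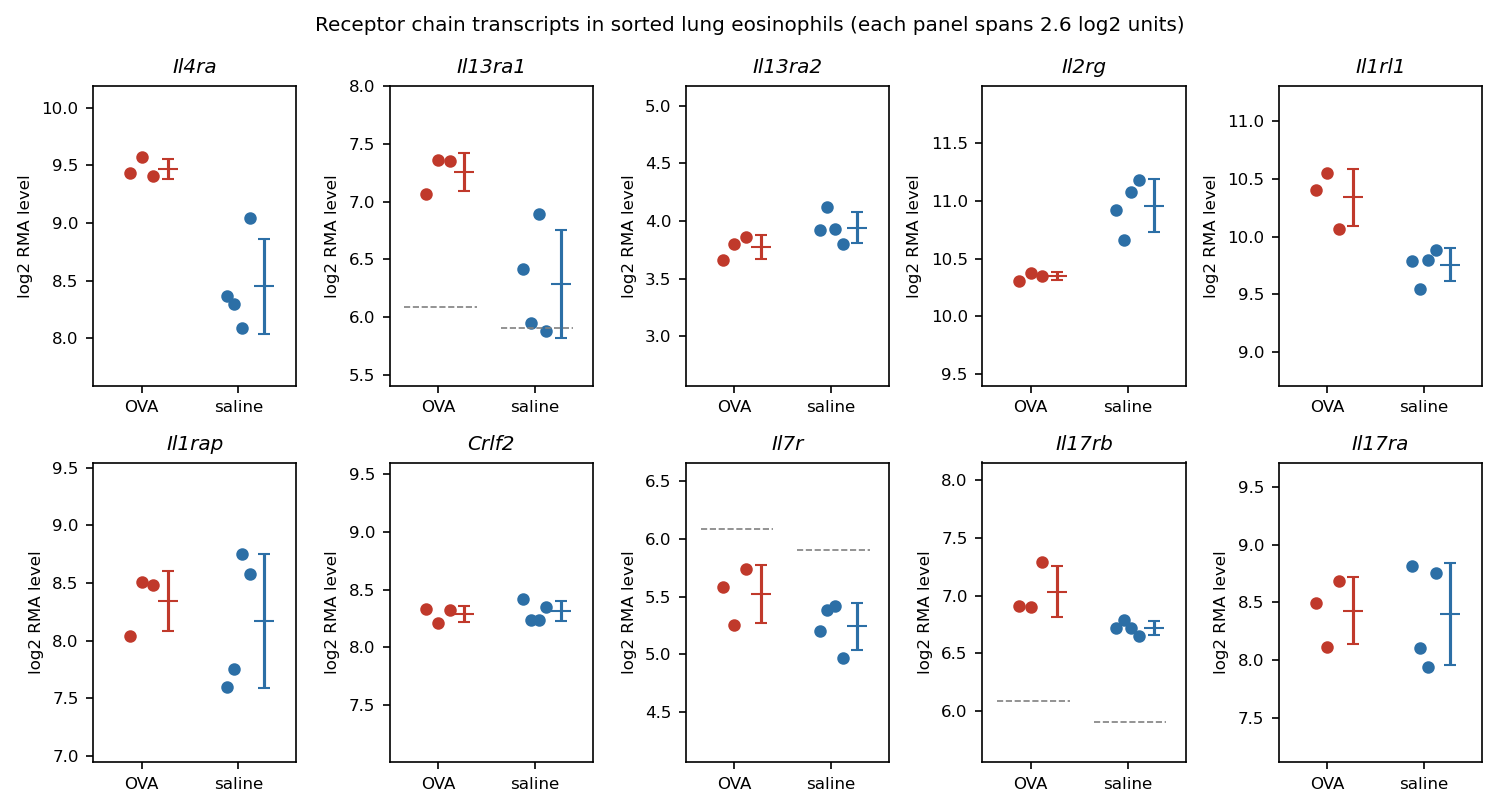
Log2 RMA level (vertical axis) of each receptor chain in the 3 OVA and 4 saline samples (points), with mean and SD beside them; dashed lines give the mean of the negative control medians of each group where they fall in the panel. OVA points lie wholly above saline points for Il4ra, Il13ra1, Il1rl1 and Il17rb and wholly below them for Il2rg.

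The starts of transcription of the chains that changed are of different kinds, and their sequences are shown for that reason. Windows of 250 bases before annotated starts were taken from RefSeq (build GRCm38.p6), where 9 of the 10 genes had 10 windows in a table of 32851. Il1rl1 has 2 of them. The gene is known to be transcribed from an upstream start in blood cells and from a downstream one in fibroblasts, and GATA1 is a transcription factor that eosinophil development needs. GATA motifs (GATA with A or T before it and A or G after it, on either strand; a search added after the data were seen) are in capitals in both Il1rl1 windows, which lie on the plus strand at chr1:40429320-40429569 and chr1:40439379-40439628.
Il1rl1 upstream start: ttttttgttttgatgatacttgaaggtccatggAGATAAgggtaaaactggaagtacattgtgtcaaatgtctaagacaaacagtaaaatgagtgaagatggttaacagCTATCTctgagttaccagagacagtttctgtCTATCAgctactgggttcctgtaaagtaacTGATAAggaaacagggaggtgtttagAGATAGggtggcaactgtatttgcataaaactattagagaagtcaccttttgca
Il1rl1 downstream start: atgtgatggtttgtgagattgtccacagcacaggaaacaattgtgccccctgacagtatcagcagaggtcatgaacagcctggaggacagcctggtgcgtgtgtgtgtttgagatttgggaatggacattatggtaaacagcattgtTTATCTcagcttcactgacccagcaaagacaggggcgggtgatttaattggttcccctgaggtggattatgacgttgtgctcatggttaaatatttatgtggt
The upstream window held 5 matches, whose first bases lie at -217, -141, -110, -80 and -54 from the start, and the downstream window held 1, at -103. A GATA match was in 26.5% of all windows, and 5 or more were in 0.0426%. The number 5 is the count of the upstream window itself, so the second share describes that window and is no test. Gata1 differed by 0.11 (limma adjusted p = 0.755). The probe set reads the gene as a whole, so the levels given here do not tell the 2 starts apart, and a match is no evidence that a factor binds.

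The windows of Il4ra (chr7:125552021-125552270, plus strand), Il13ra1 (chrX:36111858-36112107, plus strand) and Il2rg (chrX:101268256-101268505, minus strand) are shown because these chains make up the IL-4 receptors and did not change in the same direction. CG dinucleotides are in capitals.
Il4ra: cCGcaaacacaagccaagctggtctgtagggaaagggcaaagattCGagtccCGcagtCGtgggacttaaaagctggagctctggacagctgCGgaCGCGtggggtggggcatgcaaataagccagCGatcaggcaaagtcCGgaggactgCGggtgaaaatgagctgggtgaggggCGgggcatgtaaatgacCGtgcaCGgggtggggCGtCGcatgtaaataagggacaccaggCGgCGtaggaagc
Il13ra1: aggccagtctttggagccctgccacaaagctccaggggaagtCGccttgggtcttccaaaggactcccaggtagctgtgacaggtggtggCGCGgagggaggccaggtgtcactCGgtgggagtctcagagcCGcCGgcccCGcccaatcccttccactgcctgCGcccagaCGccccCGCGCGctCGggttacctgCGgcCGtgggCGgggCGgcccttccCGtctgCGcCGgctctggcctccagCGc
Il2rg: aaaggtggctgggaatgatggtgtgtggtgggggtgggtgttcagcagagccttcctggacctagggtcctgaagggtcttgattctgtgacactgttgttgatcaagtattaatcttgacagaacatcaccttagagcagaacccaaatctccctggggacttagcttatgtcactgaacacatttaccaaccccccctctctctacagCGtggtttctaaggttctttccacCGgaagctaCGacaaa
Il4ra held 17 CG dinucleotides and Il13ra1 21, above the 75th percentile of all windows, 16, whereas Il2rg held 3, under the median of 6. Il1rl1, also higher, held 0 in its upstream and 3 in its downstream window. Among chains not called, Crlf2 held 24, Il17rb 27 and Il1rap 30, and Il13ra2 and Il7r held 1 each. Whether CG content bears on the changes was not tested. The letters TTCNNNNGAA, the palindrome that STAT6 prefers, which read alike on both strands, were in 0 of the 10 windows of these genes and in 5.85% of all windows. The related TTCNNNGAA of other STAT factors was in the Il7r window alone among the 10 and in 7.02% of all windows.

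Il4ra, the chain that binds IL-4, had levels of 9.43, 9.57 and 9.41 in OVA samples, against 8.37, 8.30, 8.09 and 9.04 in saline samples. The OVA samples lay close together and above every saline sample, of which replicate 4 stood apart from the other 3 by being higher. The difference was 1.02 (SE 0.20; limma adjusted p = 0.0169), a 2.03-fold higher level with a 95% interval of 1.48 to 2.77. It kept its direction under all 19 alternative settings and was called under 14. It was not called without OVA replicate 1 (0.0623), OVA replicate 2 (0.0871), OVA replicate 3 (0.0758), saline replicate 1 (0.0508) or saline replicates 1 and 2 together (0.076, all limma adjusted p).

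Il13ra1, the partner of Il4ra in the type II receptor, had levels of 7.07, 7.36 and 7.35 in OVA samples, against 6.42, 5.95, 6.89 and 5.88 in saline samples. Again the groups did not overlap, but the saline samples were spread widely and 2 of the 4 were not above the median of the negative control probe sets, which was 5.86 to 5.95 in saline. The saline level is therefore in part a background level and the size of the difference is uncertain. The difference was 0.98 (SE 0.23; limma adjusted p = 0.0358), or 1.97-fold with an interval of 1.38 to 2.80. It was called under 10 of 19 alternatives, always in this direction. The limma adjusted p was 0.0765, 0.146 and 0.163 without OVA replicate 1, 2 or 3, 0.072 without saline replicate 1, 0.0672 without saline replicate 2 and 0.108 without both. It was 0.0508 after median centring, 0.0587 with all probe sets tested and 0.0818 with the separation of control probe sets as a covariate.

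Among saline samples Il4ra and Il13ra1 were not high together. Saline replicate 4 had the highest Il4ra and the lowest Il13ra1 level of the 4, and saline replicate 3 the lowest Il4ra and the highest Il13ra1. In saline replicates 2 and 4 Il13ra1 was not above the negative control median, so their order in Il13ra1 is not settled.

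Il2rg, the common gamma chain shared with the receptors for IL-2, IL-7, IL-9, IL-15 and IL-21, was lower. Its levels were 10.31, 10.38 and 10.35 in OVA samples, against 10.92, 10.66, 11.08 and 11.18 in saline samples. The OVA samples lay close together, and every one was below the lowest saline sample. Il2rg fell by 0.61 (SE 0.13; limma adjusted p = 0.0261) to 0.654 of the saline level, with an interval of 0.532 to 0.804. It was called under 13 of 19 alternatives and was lower under all 19. The limma adjusted p was 0.0926, 0.101 and 0.11 without OVA replicate 1, 2 or 3, 0.0566 and 0.0596 without saline replicate 1 or 3, and 0.0609 after median centring. In bulk samples fewer cells of a type and less RNA per cell cannot be told apart. T cells carry much Il2rg: of 9 measured T cell markers 1, Cd2, was higher and 0 were lower, and their mean level per sample was 6.72 to 6.95 in OVA and 6.77 to 7.08 in saline. Cd3d, a T cell receptor subunit, was 8.07 ± 0.39 in OVA and 9.21 ± 0.62 in saline (limma adjusted p = 0.0648, mean ± SD, n = 3 and 4). The other uncalled T cell markers differed less. Cd3e, Cd3g and Cd247, further subunits, differed by 0.16, -0.06 and 0.11, and Cd4, Cd8a, Lck and Bcl11b by -0.23, -0.23, -0.22 and -0.17. The part of T cells in the Il2rg difference was not tested.

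Il13ra2, the decoy for IL-13, had levels of 3.66, 3.80 and 3.86 in OVA samples and 3.92, 4.12, 3.93 and 3.80 in saline samples. No sample reached its negative control median, so neither group had a level above background and no fold is given. 

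**Figure D2:**
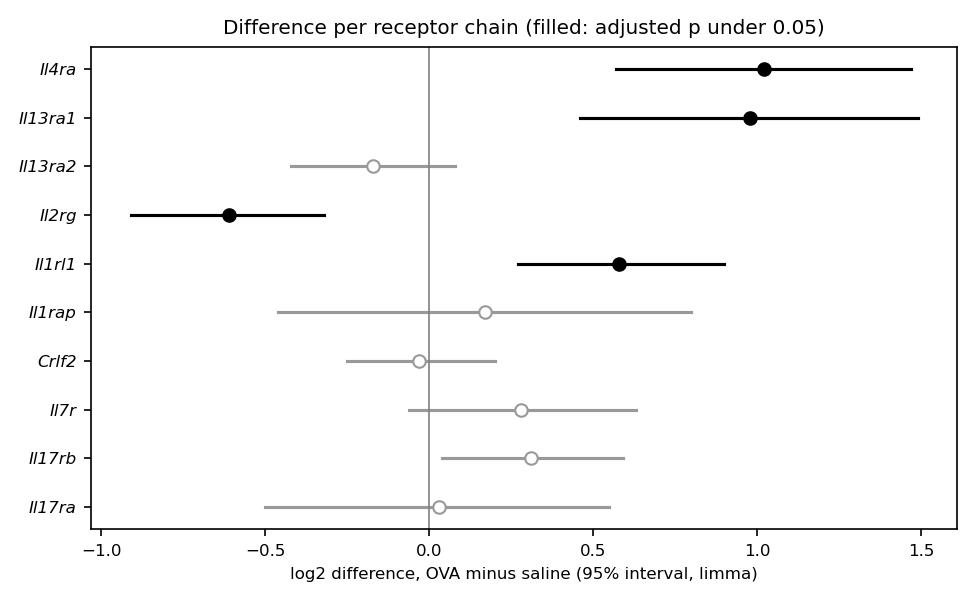
Log2 difference, OVA minus saline (horizontal axis), of the 10 receptor chains with 95% intervals from limma; filled points passed the adjusted threshold. Il4ra, Il13ra1 and Il1rl1 lie to the right of 0 and Il2rg to the left, and the intervals of the other chains except Il17rb include 0.

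Il1rl1, which encodes the IL-33 receptor ST2 in both its membrane and its soluble form, had levels of 10.40, 10.55 and 10.07 in OVA samples, against 9.79, 9.55, 9.80 and 9.88 in saline samples. The lowest OVA sample, replicate 3, was only a little above the highest saline sample. The difference was 0.58 (SE 0.14; limma adjusted p = 0.0372), 1.5-fold with an interval of 1.21 to 1.86. It was higher under all 19 alternatives and called under 8. The limma adjusted p was 0.124 and 0.177 without OVA replicate 1 or 2, 0.0772, 0.0662 and 0.0648 without saline replicate 1, 2 or 3, and 0.107 without saline replicates 1 and 2. It was 0.0754 after a second quantile normalization, 0.0616 after cyclic loess, 0.0556 with all probe sets and 0.0697 with the covariate.

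Il1rap, the accessory chain that IL-33 shares with IL-1 and IL-36, parted the saline samples rather than the groups. Its levels were 8.04, 8.51 and 8.48 in OVA samples, against 7.60, 7.75, 8.75 and 8.58 in saline samples. Saline replicates 1 and 2 were below every OVA sample and saline replicates 3 and 4 above. The difference was 0.17 (SE 0.28; interval -0.46 to 0.80; limma adjusted p = 0.713). It was 0.67 with saline replicates 3 and 4 left out, which limma called (adjusted p = 0.0255), and -0.32 with saline replicates 1 and 2 left out (adjusted p = 0.348). The separation of positive from negative control probe sets, as an area under the curve, was 0.829 to 0.852 in OVA samples. Saline replicates 1 and 2 were lower, at 0.81 and 0.80, and the other saline samples were at 0.843 and 0.845. With that measure as a covariate the Il1rap difference was -0.27 (limma adjusted p = 0.301). Among neutrophil markers S100a8 and S100a9 were also lower in saline replicates 1 and 2 than in 3 and 4. Ngp, Camp, Mmp8 and Retnlg were higher there. What parted the saline samples was not tested.

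Crlf2, the chain that binds TSLP, varied little, at 8.33, 8.21 and 8.32 in OVA samples and 8.42, 8.24, 8.24 and 8.35 in saline samples. The groups overlapped, and the interval of the difference in the main setting was -0.25 to 0.20 around -0.03, or 0.841-fold to 1.15-fold. Crlf2 differed by -0.22 after quantile normalization again and by -0.17 after cyclic loess, so that interval does not bound the change under other normalizations. Il7r, which completes the TSLP receptor and the IL-7 receptor, was under the negative control median in all 7 samples, with 5.58, 5.25 and 5.74 in OVA samples against 5.20, 5.38, 5.42 and 4.97 in saline samples, and no fold is given.

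Il17rb, the chain that binds IL-25, had 6.91, 6.90 and 7.29 in OVA samples, against 6.72, 6.79, 6.72 and 6.65 in saline samples. All OVA samples were above all saline samples, but the margin was small. The difference of 0.31 (SE 0.12; interval 0.04 to 0.59) had an unadjusted p of 0.0282 and a limma adjusted p of 0.18, and it was called under 0 of 19 alternatives. Il17ra, shared by the receptors for IL-17 and IL-25, had 8.49, 8.11 and 8.68 in OVA samples against 8.81, 8.10, 7.94 and 8.75 in saline samples. Its groups overlapped, with a difference of 0.03 and an interval of -0.50 to 0.55.

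Whether the 2 chains of a receptor changed unequally was tested on their log2 ratio within each sample. A ratio between probe sets does not say which chain is more abundant, so only its shift between groups has a meaning. For the type I receptor, Il4ra over Il2rg was -0.88, -0.81 and -0.94 in OVA samples, against -2.55, -2.36, -2.99 and -2.14 in saline samples. The ratio was higher in 3 of 3 OVA samples than in any saline sample. It shifted by 1.63, or 3.1-fold, with an exact permutation p of 0.02857 (2-sided), the smallest that 35 splits can give. Every OVA sample already lay above all saline samples in Il4ra and below them in Il2rg. The separation of the ratio followed from that, so this p adds no independent support. Adjusted over the 5 ratios tested this p was 0.143 and did not pass. With 35 splits a single ratio at the smallest p could not pass this adjustment, whatever its shift. The adjusted p therefore does not decide whether the 2 chains changed unequally.

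For the type II receptor, Il4ra over Il13ra1 was 2.36, 2.21 and 2.06 in OVA samples, against 1.95, 2.35, 1.20 and 3.16 in saline samples. The OVA samples fell inside the saline range, and the shift was 0.04 (exact permutation p = 0.886, also 0.886 adjusted). Il13ra1 was not above the negative control median in saline replicates 2 and 4, whose ratios were the 2 highest of saline, so this ratio does not settle whether the chains changed unequally. Il1rl1 over Il1rap shifted by 0.41 and Il17rb over Il17ra by 0.29, with exact permutation p of 0.314 and 0.371 and 0.464 adjusted for each. In both the groups overlapped. The ratio of Crlf2 over Il7r was among the 5 adjusted for, but with Il7r under the negative control median in all 7 samples it does not test a change of the TSLP receptor's chains, and it is not read.

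**Figure D3:**
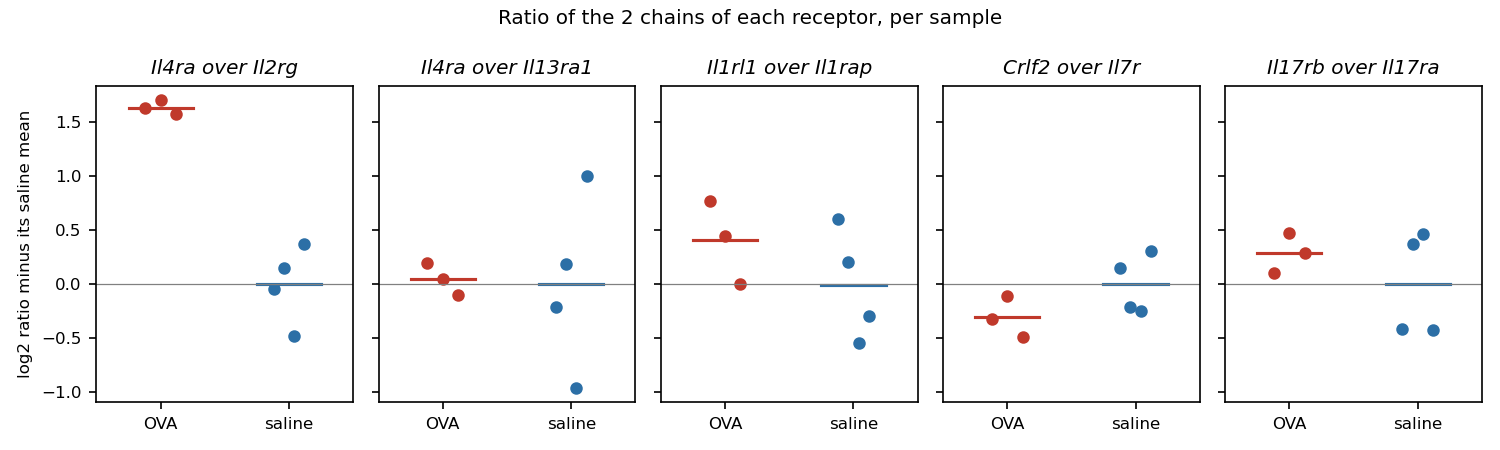
Log2 ratio of the 2 chains of each receptor within a sample, minus the mean of that ratio in saline (vertical axis), for the 3 OVA and 4 saline samples; lines are group means. Il4ra over Il2rg is the ratio whose OVA samples all lie above the saline samples, and the other 4 overlap; Il7r was under the negative control median in all samples and Il13ra1 was not above it in saline replicates 2 and 4.

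Of the ligands, Il4 was higher and the alarm cytokines were not called. Il4 had 11.06, 11.14 and 10.35 in OVA samples, against 7.83, 7.92, 9.24 and 9.41 in saline samples, a difference of 2.25 (SE 0.40; limma adjusted p = 0.0111). The saline samples fell into a lower pair, replicates 1 and 2, and a higher pair, and limma did not call Il4 without OVA replicate 1 (0.0559) or OVA replicate 2 (0.0616). Il13 had 10.48, 10.64 and 9.69 in OVA samples and 9.08, 8.16, 9.77 and 9.74 in saline samples, and the groups overlapped (limma adjusted p = 0.146). Il33 and Tslp were under the negative control median in all 7 samples. Il25 was at 6.53 ± 0.07 in OVA and 6.63 ± 0.18 in saline (SD, n = 3 and 4; limma adjusted p = 0.641). In all 1 of 6 ligand genes was higher and 0 were lower.

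Other receptors built from the same chains or families were mostly not called. Il1rl2, the IL-36 receptor chain that also pairs with Il1rap, was the exception. It had 7.10, 6.57 and 6.63 in OVA samples, against 5.24, 5.46, 4.81 and 5.44 in saline samples. No saline sample was above its negative control median. Set against the mean of those medians, 5.91, the OVA level was 1.81-fold higher, a value that was not tested. The negative control medians of OVA samples were higher, 6.04 to 6.17, so this value is no lower bound. The limma adjusted p of 0.00182 belongs to the measured difference of 1.53, and the gene was called under all 18 alternatives that tested it. Thus 1 of 7 other IL-1 receptor family genes was higher and 0 were lower, with Il1r2, the decoy for IL-1, at 10.99 ± 0.10 in OVA and 10.09 ± 0.75 in saline (limma adjusted p = 0.167). Of 5 genes for other partners of the common gamma chain 0 were called (0 at an unadjusted p under 0.05), and Il15ra had the smallest p (-0.23, limma adjusted p = 0.308). Of 3 other IL-17 receptor genes 0 were called and 0 had an unadjusted p under 0.05, with Il17rc at -0.18 (limma adjusted p = 0.323).

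The kinases and adaptors that carry the signal from these receptors were not called. At the share called over all genes, 6.45%, lists this short would hold few calls in any case. Of 17 measured genes of the JAK-STAT relay 0 were higher and 0 lower by limma, where 6.45% of all genes were called, and 3 had an unadjusted p under 0.05. Inpp5d, a lipid phosphatase, came closest (0.38, limma adjusted p = 0.151) and was called with array weights alone (0.0265). Stat6, the transcription factor downstream of Il4ra, was 9.81 ± 0.02 in OVA and 10.02 ± 0.30 in saline, and Jak1 was 11.34 ± 0.08 and 11.47 ± 0.09 (limma adjusted p = 0.456 and 0.465). Of 18 genes of the MyD88 relay limma called 0 (4 at an unadjusted p under 0.05), with Tab2, an adaptor of the kinase TAK1, at 0.51 (limma adjusted p = 0.0642) and called under 4 of 18 alternatives. Of 6 genes of the Act1 relay used by IL-25, 0 were called and 0 had an unadjusted p under 0.05, with Traf3 at 0.25 (limma adjusted p = 0.255).

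Of 8 measured feedback genes of the SOCS family, which damp cytokine receptors, 2 were higher, 1 was lower and 5 did not pass the test. Over all genes 5.28% were higher and 1.17% lower. Socs2 had 8.25, 8.39 and 8.17 in OVA samples, against 6.96, 7.05, 7.06 and 6.97 in saline samples, 2 tight groups with a difference of 1.26 (SE 0.10; limma adjusted p = 0.000148) that was called under all 19 alternatives. Cish had 10.05, 9.90 and 9.91 in OVA samples, against 8.87, 8.14, 9.04 and 9.35 in saline samples, a difference of 1.10 (SE 0.24; limma adjusted p = 0.0266). Limma did not call Cish without OVA replicate 1 (0.0997), 2 (0.0977) or 3 (0.111) or without saline replicate 1 (0.0683). Socs5, which has been linked to inhibition of IL-4 signalling, fell by 0.46 (SE 0.11; limma adjusted p = 0.0349), with 9.06, 9.15 and 9.07 in OVA samples against 9.52, 9.43, 9.53 and 9.75 in saline samples, and limma did not call it without OVA replicate 1 (0.113), 2 (0.116) or 3 (0.142) or without saline replicate 1 (0.0674) or 3 (0.0665). Socs5 was called under 10 of 19 alternatives and lower under all 19. Socs1, induced by STAT6 in other cells, differed by -0.11 (limma adjusted p = 0.543).

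Among 20 measured genes known to respond to IL-4 through STAT6 in macrophages or lymphocytes of mice, 10 were higher and 2 lower. The median difference of the 20 was 0.71. Over all genes 5.28% were higher and 1.17% lower. The 2 lower genes were Myc (-1.76) and Tgm2 (-0.46), with limma adjusted p of 0.00238 and 0.0242. Among the 10 higher genes, Ch25h was under the negative control median in all 7 samples and so had no level above background. The 3 with the smallest p were Retnla (5.24), Chil3 (6.20) and Egr2 (3.01), with limma adjusted p of 3.89e-07, 2.43e-06 and 6.26e-06. Bcl6, a transcriptional repressor, had 8.23, 9.07 and 9.24 in OVA samples, against 6.77, 6.79, 7.02 and 6.82 in saline samples. The list was chosen with these changes known and does not independently bear on signalling. Chil3, Mrc1 and Itgax in it are also markers of alveolar macrophages, whose list is given with the other markers.

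**Figure D4:**
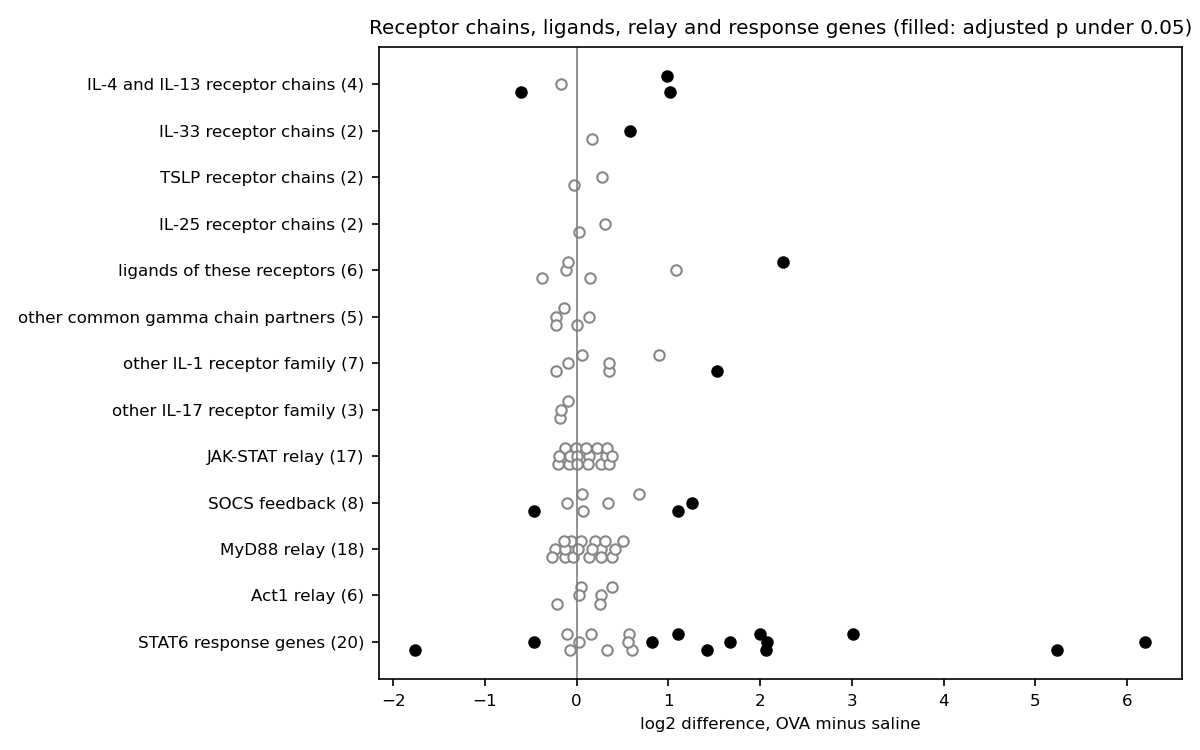
Log2 difference, OVA minus saline (horizontal axis), of each measured gene in the lists of receptor chains, ligands, relay, feedback and response genes; the number of genes is in brackets and filled points passed the adjusted threshold. The relay lists hold open points only, close to 0, and the STAT6 response genes spread from -1.76 to 6.20.

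For each called chain the 3 genes whose levels correlated best with it over the 7 samples were looked up, as a description. For Il4ra these were Usp14, Atp6v1a and Lman2l (Pearson r 0.987, 0.986 and 0.986), and Usp14, a proteasome-associated deubiquitinase, differed by 1.20. For Il13ra1 they were Spry2, Gstcd and Prkar2b (0.98, 0.98 and 0.979). For Il2rg they were B4galt7, Arhgap6 and Map2k3 (0.997, 0.993 and 0.991), and the kinase gene Map2k3 fell by 0.75. For Il1rl1 they were the chemokine Ccl3, Taf15 and Ankrd52 (0.986, 0.977 and 0.975). The points share the 2 groups and the arrays, and the best of so many genes is high by choice.

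Eosinophil identity and other cell types were read from marker lists. All 12 eosinophil markers were above the negative control median in every sample, and 4 were higher (Epx, Prg2, Cebpe and Siglecf) and 1 lower (Ear2). Epx, the eosinophil peroxidase, differed by 2.69 and Ear2, a ribonuclease, by -0.48. Among the uncalled was Ccr3, the eotaxin receptor (11.84 ± 0.12 in OVA and 11.98 ± 0.06 in saline), and Siglecf was at 10.17 ± 0.11 in OVA and 9.34 ± 0.16 in saline. Group 2 innate lymphoid cells (ILC2) are known for Il1rl1, Il17rb and Il7r. Of their 10 markers limma called 0 (also 0 at an unadjusted p under 0.05), and 6 to 7 were above the negative control median in each sample. Thy1, Icos, Areg and Calca were above it in all 7 samples, and Gata3, Il2ra and Il5 in none. The ILC2 list averaged 6.03 to 6.05 in OVA and 6.01 to 6.10 in saline. Of 8 mast cell markers 0 were called and 0 had an unadjusted p under 0.05 (5.59 to 5.64 and 5.57 to 5.82), and Cpa3 was under that median in all 7 samples. Of 8 basophil markers the cytokine Il6 was higher and 0 were lower (6.13 to 6.24 in OVA and 5.81 to 5.95 in saline). Il6 is part of these means and differed by 2.58. The other basophil markers differed by -0.32 (Mcpt8) to 0.32 (Cd200r3) and were not called. Mcpt8 was above the negative control median in 0 of 3 OVA and 1 of 4 saline samples.

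Of 14 alveolar macrophage markers 7 were higher in OVA samples and 0 were lower, where 5.28% of all genes were higher and 1.17% lower. The mean level of the list was 7.71 to 8.18 in OVA against 6.29 to 6.65 in saline. The 7 were Chil3, Car4, Itgax, Pparg, Fabp5, Mrc1 and Atp6v0d2. Of these Car4 differed by 5.36, Mrc1 by 2.06 and Fabp5 by 0.91. Atp6v0d2 was not above background in any saline sample. Its OVA level was 2.55-fold above the mean saline background, a value that was not tested. Its limma adjusted p of 0.00524 belongs to the measured difference of 2.28. The other 7 were not called. Among them Marco was 5.91 ± 0.21 in OVA and 6.10 ± 0.20 in saline, Mertk was under the negative control median in all 7 samples, and so was Fabp4, which differed by 0.42 (limma adjusted p = 0.156). Epithelial markers were higher for 2 of 11 (Sftpa1 and Sftpc; 7.60 to 7.61 in OVA and 7.07 to 7.51 in saline), neutrophil markers for 2 of 8 (Ngp and Ltf), dendritic cell markers for 1 of 10 (Itgae), and monocyte and B cell markers for 0 of 8 and 0 of 6 (1 of each at an unadjusted p under 0.05), with 0 lower in each of these lists. The part of these cells in the differences of the receptor chains was not tested.

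**Figure D5:**
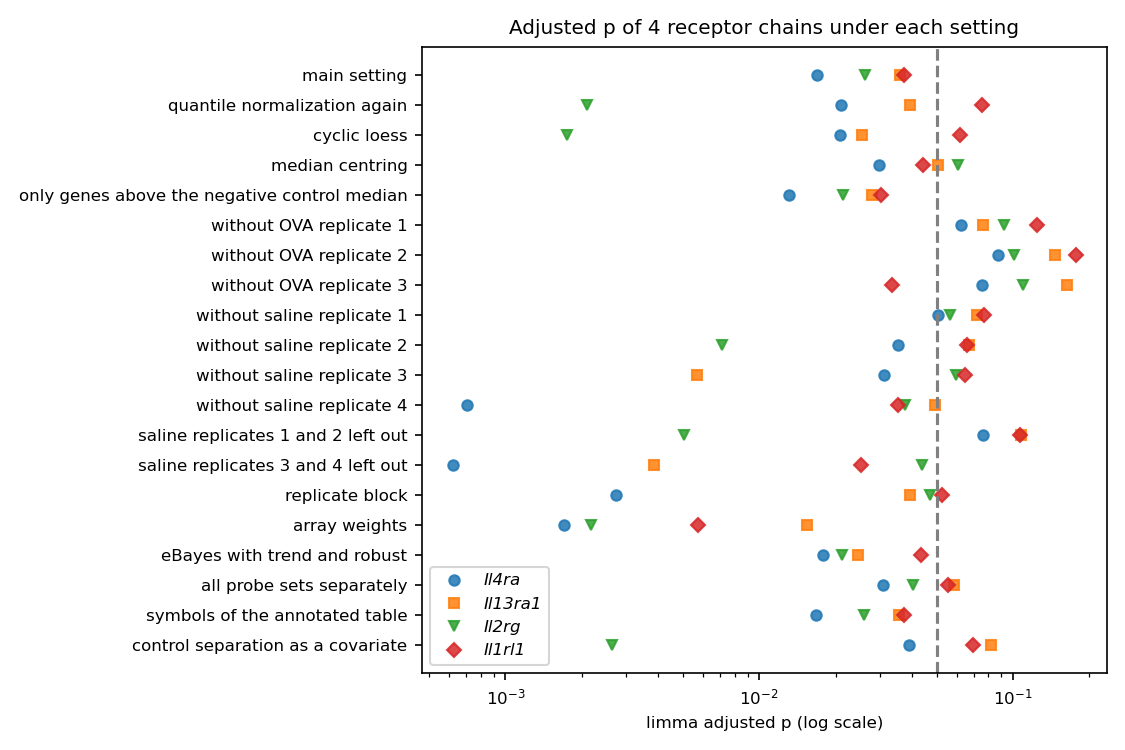
Limma adjusted p (horizontal axis, log scale) of Il4ra, Il13ra1, Il2rg and Il1rl1 in the main setting and under each of 19 alternatives (rows), with the threshold of 0.05 dashed. Points of all 4 chains cross the threshold in some rows, and most points past it are in rows that leave out samples.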

How the data were processed

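Values are the log2 expression levels per probe set that the authors deposited after RMA, per the submitters' processing notes (software and settings: not given in the sources used here). In its usual form this method subtracts background, quantile normalizes the probes and summarises them per probe set, so a shift shared by most genes would be removed before any comparison. The array medians were 6.47 to 6.59. The 7 value columns of the deposited annotated table match no sample label and were not used. They carry running numbers that would place the samples in another order than the values used here. Other columns of that table named the probe sets. Of 35557 probe sets, 16887 were named by accession, 1293 by symbol and 670 by synonym through RefSeq genes (GRCm38.p6), and 977 kept the table's symbol. The written design had also set a search for protein motifs, which was not run because protein sequences were not used here. A gene is its probe set with the highest mean, with no filter. The fit used limma 3.58.1 in R 4.3.3 (lmFit and eBayes, with group as the only term) and was checked on simulated data. Chain ratios used an exact permutation test over samples. The number of arrays limits the precision. Background is the median of 5222 negative control probe sets, 6.04 to 6.17 in OVA and 5.86 to 5.95 in saline samples.

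Members, gene lists and rules were chosen with earlier results of these data known. The text names all 10 members, up to 3 called genes of each pathway list by smallest p (or the 1 with the smallest p where none was called), the 3 genes most alike to each called member and up to 2 markers per list called. Stat6, Jak1, Il13, Il33, Tslp, Il25, Il1r2, Socs1, Bcl6, Myc, Tgm2, Ch25h and the further markers were named after their values were seen. Alternatives are in the closing section.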

Additional observations from a re-analysis of the deposited data

Results flagged for a closer look

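Tab2, the adaptor of the kinase TAK1 in the MyD88 relay, was at 10.37, 10.47 and 10.48 in OVA samples, and 1 saline sample lay far from the others: replicate 2 at 9.56, against 10.02 to 10.07 in the other 3, a gap of 0.902 of the saline range. Chance flags about 1 in 20 groups, and 23 genes and 5 ratios were looked at.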

How the results depend on the processing

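Over the alternatives the 4 called chains kept their directions in all 19, and limma called Il4ra in 14, Il2rg in 13, Il13ra1 in 10 and Il1rl1 in 8. The number of chains called higher was 0 without saline replicates 1 and 2, 1 with all probe sets tested and 1 with the control covariate, and ran from 0 to 3 without 1 sample; the number lower was 0 after median centring and ran from 0 to 1. Leaving out a sample also leaves fewer samples: the counts over all genes then ran from 367 to 1218 higher and from 68 to 267 lower. Over all genes 513 were lower after quantile normalization again, 476 after cyclic loess, 123 after median centring, 406 without saline replicates 1 and 2, and 560 with the covariate. Without saline replicates 3 and 4 the counts were 2190 higher and 989 lower, and with array weights 1652 and 679; the cause was not tested. The shift of Il4ra over Il2rg ran from 1.47 to 1.76 without 1 sample, and was 1.69 without saline replicates 1 and 2, 1.58 without replicates 3 and 4, and 1.76 with the replicate block; these designs have too few splits to pass. Uncalled values near 0 turned sign: Il4ra over Il13ra1 was -0.12 after quantile normalization again, -0.16 after cyclic loess and -0.28 to 0.38 without 1 sample. Il17ra was -0.17, -0.12, -0.03 and -0.07 after quantile normalization again, cyclic loess, without saline replicates 3 and 4 and with array weights, and -0.13 to 0.18 without 1 sample. Crlf2 was 0.003 after median centring and -0.05 to 0.01 without 1 sample, and Il1rap was -0.32 without saline replicates 1 and 2, -0.27 with the covariate and -0.02 to 0.37 without 1 sample. Deviations of same-numbered OVA and saline samples correlated at 0.272, -0.137 and 0.241, so the numbers were not taken as pairs. The replicate block gave 1362 higher and 318 lower over all genes and ended the calls of Il1rl1 (0.63, limma adjusted p = 0.0524) and Socs5 (-0.40, limma adjusted p = 0.0729); OVA samples did not correlate best with their own number. Signal over background, taken as the negative control median, limits Il13ra1 in saline and Il13ra2 and Il7r in all samples. The 95th percentile of the negative controls is a stricter limit. Il2rg and Il1rl1 were above it in all 7 samples and Il4ra in the 3 OVA samples alone. Il13ra1, Il13ra2, Il1rap, Crlf2, Il7r, Il17rb and Il17ra were above it in 0 samples.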
